A study of Mus musculus with 6 samples.

Results

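The Wnt ligands, their Frizzled receptors and the secreted antagonists of the Sfrp and Dkk families were followed through mouse embryonic stem cells, neural progenitors and cells labelled as a Phc1 knock-out. Members were taken by gene symbol: every numbered Wnt and Fzd gene, Sfrp1 to Sfrp5 and Dkk1 to Dkk4, with 1 exception given under processing. The rule found 37 of the 37620 gene identifiers in the count tables, namely 18 ligands, 11 Frizzled entries and 8 antagonists. The 11 Frizzled entries were 10 genes and a pseudogene entry that also carries the name Fzd10. The study sequenced ribosomal-RNA-depleted total RNA from 6 libraries, 2 for each of 3 groups, which the labels call biological replicates. NPC were wild-type neural progenitors made from J1 embryonic stem cells by differentiation in culture. The libraries labelled Phc1-KO carry the genotype Phc1-/- and were also derived from J1 cells. ESC were wild-type J1 embryonic stem cells. By the protocol, stem cells were grown with LIF and serum on inactivated mouse embryonic fibroblasts and had the feeders removed before use. All 3 groups thus share the J1 background, and how many clones the Phc1-KO cells represent is not given in the sources used here.

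Wnt proteins are secreted, lipid-modified signals that bind Frizzled receptors on the cell surface. With an Lrp5 or Lrp6 co-receptor they stabilise beta-catenin, which acts with TCF and LEF factors on target genes, and with other co-receptors they act on cell polarity and movement without beta-catenin. Sfrp proteins bind Wnts outside the cell, whereas Dkk1, Dkk2 and Dkk4 bind the Lrp co-receptors. In mouse stem cell cultures beta-catenin signalling supports self-renewal, and in the embryonic nervous system Wnts pattern the neural tube and act on progenitor growth.

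The libraries held 15226214 to 21893821 reads counted in genes. What the Phc1-KO libraries are is given in 2 ways, as stem cells in the title and design of the series and as NPC in the cell type entry. The 5 stem cell markers summed to 6.38 and 6.95 CPM (reads of a gene relative to all reads counted in genes) in NPC, 1515 and 1799 CPM in Phc1-KO, and 1562 and 1569 CPM in ESC. The 4 neural progenitor markers matched summed to 2609 and 1023 CPM in NPC, 170 and 144 CPM in Phc1-KO, and 162 and 171 CPM in ESC. Of these, Pax6 was higher in Phc1-KO than in ESC (log2 fold change 2.21, edgeR adjusted p = 0.00327). It was at 21.0 and 16.9 CPM in NPC, 21.5 and 20.8 CPM in Phc1-KO, and 4.44 and 4.68 CPM in ESC. Nes, Fabp7 and Olig2 did not pass there. Phc1 itself stood at 40.8 and 34.6 CPM in NPC, 326.3 and 267.5 CPM in Phc1-KO, and 459.7 and 460.5 CPM in ESC, so the gene was still read in the libraries labelled as its knock-out (log2 fold change -0.63 against ESC, SE 0.15, edgeR adjusted p = 0.0412). Which exons were deleted is not given in the sources used here, and "Phc1-KO" below names that label. The spread within a pair beyond counting noise, as a coefficient of variation, was 27.5% in NPC, 18.1% in Phc1-KO and 1.98% in ESC. Markers of fibroblasts, the feeder cell type, summed to 7395 and 11855 CPM over 10 genes in NPC, 1063 and 854 CPM in Phc1-KO and 420 and 413 CPM in ESC, and none of the 10 was at 0 in any group. Of 4 astrocyte markers the sum was 108 and 656 CPM in NPC, 7.75 and 8.90 CPM in Phc1-KO and 15.2 and 15 CPM in ESC. Macrophage markers summed to at most 28.0 CPM and endoderm markers to at most 12.6 CPM in any library. In bulk RNA, fewer cells of a type and less RNA per cell cannot be told apart. All levels below are CPM scaled by TMM-adjusted library size, and changes were tested with edgeR over 17489 genes (Benjamini-Hochberg adjusted p under 0.05, n = 2 per group).

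NPC and ESC differed in which ligands and receptors held most of the RNA. In both NPC libraries Wnt5a led the ligands and Fzd1 and Fzd3 the receptors. Wnt7a (18.4% of the ligand sum per kb), Wnt5b (18.2%) and Wnt7b (15.9%) came next in NPC 1. In NPC 2 Wnt5b (19.5%) came next, and Wnt2b (14.7%) and Wnt6 (7.94%) lay above Wnt7a (7.41%) and Wnt7b (6.17%). In ESC, Wnt8a, Wnt5b and Wnt5a led the ligands and Fzd7 and Fzd5 the receptors. Of the 31 members that passed the filter on low counts, 11 were higher in NPC and 9 lower, or 64.5%, beside 61.3% of all genes tested (30.4% higher, 30.9% lower). The share of members that changed was therefore close to that of genes at large, and the results lie in which members moved. Their median log2 fold change (log2 change below) was 0.81, against -0.01 over all genes. Both NPC libraries lay above both ESC libraries in 11 members and below in 12, beside 41.8% and 43.4% of all genes (85.2% together). In NPC 9 of 10 fibroblast markers were also higher than in ESC, and their part in the changes of the members was not tested. The 6 members that did not pass the filter were Wnt1, Wnt8b, Wnt9b, Dkk4, Sfrp5 and the Fzd10 pseudogene. Of the 31, 23 passed the filter through all 3 groups. Wnt7a passed through NPC and ESC, and Wnt6, Wnt8a and Dkk1 through Phc1-KO and ESC but not NPC. Wnt8a and Dkk1 thus entered without NPC, where they were low, which limits their tests against NPC. Wnt3a, Wnt10a and Wnt10b passed through ESC alone and Wnt2 through Phc1-KO alone, so a difference in these was built into their selection and is described below without a test. Without these 4, 11 members were higher in NPC and 6 lower of 27.

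In the Phc1-KO libraries 4 members changed against ESC. Dkk2, a secreted co-receptor inhibitor, rose 17.0-fold. Wnt5a rose 1.69-fold, while Wnt5b fell to 0.425 and Fzd1 to 0.546 of the ESC level. These 4 were 12.9% of the 31 tested, beside 10.7% of all genes (4.91% higher, 5.75% lower), and the median was -0.30, against 0.00 over all genes. An unadjusted p under 0.05 was reached by 9 members, and the share of all genes at that threshold is not given. Both Phc1-KO libraries lay above both ESC libraries in 7 members and below in 18, beside 32.6% and 34.2% of all genes (66.7% together). Only Dkk2 still passed with the ESC pair counted as 1 library, without ESC 1 or without Phc1-KO 1. No member passed without ESC 2 or without Phc1-KO 2, where Dkk2 had an adjusted p of 0.0619 and 0.0721. Fitted without the NPC libraries, 3 members were higher and 8 lower. The share of all genes called in that fit is not given, so the 10.7% above is not its background.

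**Figure D1:**
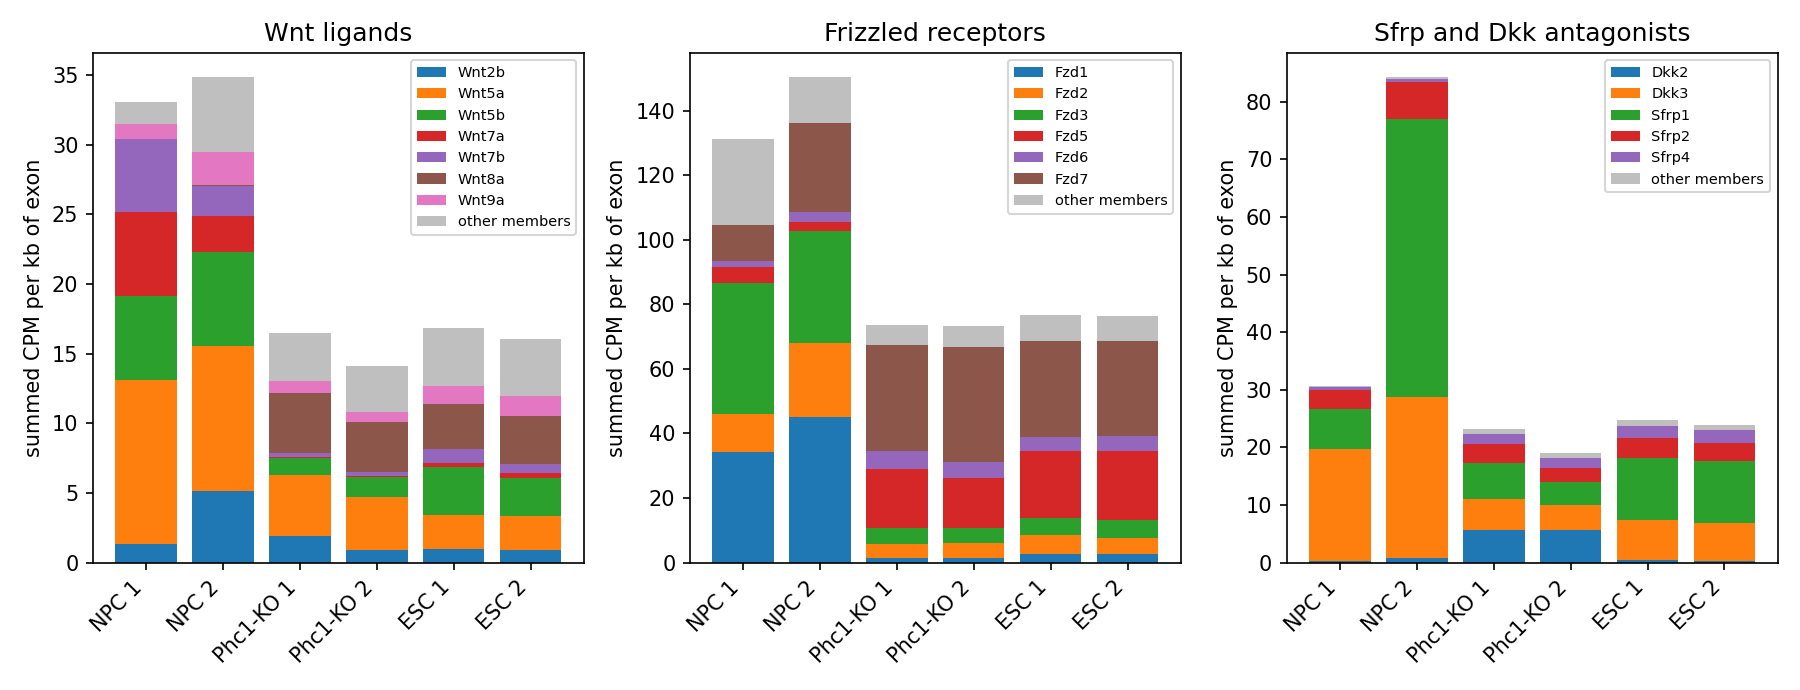
Level of each family per library, in CPM per kb of exon (linear axis from 0), stacked by member, for NPC, Phc1-KO and ESC. Fzd1 and Fzd3 fill most of the NPC receptor bars, Fzd7 and Fzd5 most of the Phc1-KO and ESC bars, and Sfrp1 sets the NPC libraries apart from each other.

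To compare genes with each other, CPM were divided by exon length. The 18 ligands together reached 33.0 and 34.8 CPM per kb in NPC 1 and 2, 16.5 and 14.1 in Phc1-KO 1 and 2, and 16.9 and 16.0 in ESC 1 and 2. Frizzled RNA was more abundant than ligand RNA in every library, at 131 and 150 CPM per kb in NPC, 73.6 and 73.4 in Phc1-KO, and 76.6 and 76.4 in ESC. Both NPC libraries lay above all the others for ligands and for receptors. Antagonists reached 30.6 and 84.3 CPM per kb in NPC, 23.1 and 19.1 in Phc1-KO, and 24.7 and 23.9 in ESC. Without Sfrp1 these sums were 23.6 and 36.0 in NPC, 16.8 and 15 in Phc1-KO, and 14.0 and 13.2 in ESC. Sums are given as levels, without a test.

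Among the ligands, 7 of 18 were at 1 CPM or more in both NPC libraries, 11 in both Phc1-KO libraries and 11 in both ESC libraries. Wnt5a, which acts mainly without beta-catenin, was the most abundant ligand per kb in NPC (35.7% and 29.8% of the ligand sum) and in Phc1-KO (26.8% and 26.7%), and took 14.2% and 15.2% in ESC. Wnt8a, a ligand of the beta-catenin branch made in the early embryo, took 19.1% and 21.5% in ESC, where Wnt5b took 20.5% and 16.9%, so that Wnt5b led in ESC 1 and Wnt8a in ESC 2. Wnt8a took 26.4% and 25.5% in Phc1-KO, next to Wnt5a.

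**Figure D2:**
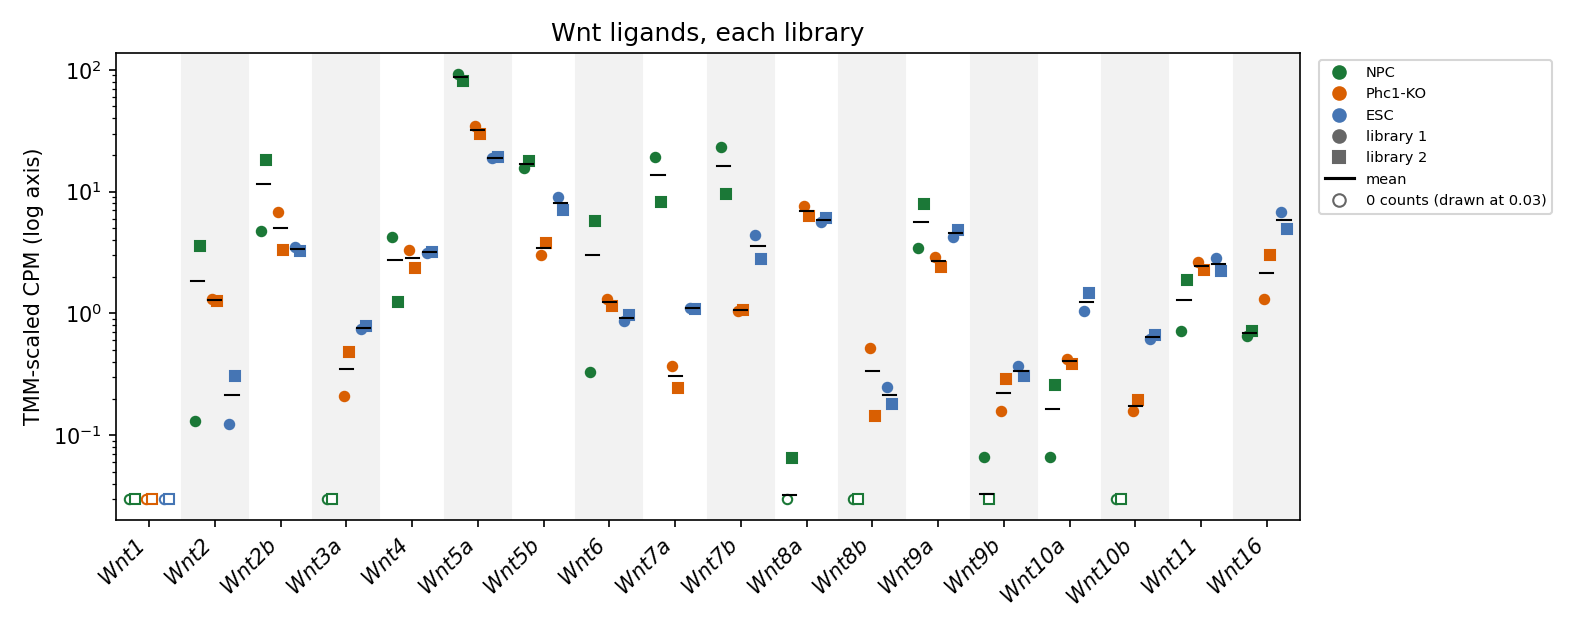
TMM-scaled CPM (log axis) of the 18 Wnt ligands in each library, with NPC, Phc1-KO and ESC side by side; bars mark the mean of 2 libraries and open symbols 0 counts. Wnt5a is high in NPC, Wnt8a is near 0 in NPC only, and Wnt1 had 0 counts in all 6 libraries.

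Wnt5a (ENSMUSG00000021994; mm9 chromosome 14, 29317936 to 29340633, plus strand) was at 92.0 and 81.0 CPM in NPC, 34.5 and 29.5 CPM in Phc1-KO, and 18.8 and 19.1 CPM in ESC. The 3 groups did not overlap, with NPC highest and ESC lowest. The log2 change was 2.19 in NPC (SE 0.16, adjusted p = 5.66e-05) and 0.76 in Phc1-KO (SE 0.15, adjusted p = 0.0281), each against ESC. The Phc1-KO call was lost without any 1 of the 4 Phc1-KO and ESC libraries, with adjusted p between 0.0625 and 0.287. Wnt5a shares 358 exon bases with an antisense non-coding gene, and the strand setting of the counts is not given in the sources used here.

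Wnt5b, the close paralog of Wnt5a, had the other order in the Phc1-KO libraries. It was at 15.7 and 17.9 CPM in NPC, 3.04 and 3.82 CPM in Phc1-KO, and 9.07 and 7.12 CPM in ESC. NPC were highest and Phc1-KO lowest, with no overlap. It rose in NPC by a log2 change of 1.05 (SE 0.23, adjusted p = 0.00679) and fell in Phc1-KO, with a log2 change of -1.24 (SE 0.25, adjusted p = 0.0270). The NPC call was lost without ESC 2, and the Phc1-KO call without any 1 of the Phc1-KO or ESC libraries (adjusted p 0.0787 to 0.271).

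Wnt7a and Wnt7b, beta-catenin ligands made by neural progenitors in the forebrain and spinal cord, rose together in NPC. Wnt7a was at 19.2 and 8.18 CPM in NPC, 0.367 and 0.242 CPM in Phc1-KO, and 1.11 and 1.09 CPM in ESC. Wnt7b was at 23.1 and 9.48 CPM in NPC, 1.05 and 1.06 CPM in Phc1-KO, and 4.38 and 2.80 CPM in ESC. For both genes NPC 1 was above NPC 2, and both Phc1-KO libraries lay below both ESC libraries. In NPC the log2 changes were 3.63 (SE 0.48, adjusted p = 0.000648) for Wnt7a and 2.18 (SE 0.45, adjusted p = 0.00505) for Wnt7b. In Phc1-KO they were -1.84 (SE 0.62, adjusted p = 0.102) and -1.76 (SE 0.51, adjusted p = 0.0725), which did not pass; with only Phc1-KO and ESC fitted the adjusted p were 0.0214 and 0.0149. The 4 neural progenitor markers matched summed to 2609 CPM in NPC 1 but 1023 in NPC 2, and each of the 4 was higher in NPC 1; their part in the gap between these libraries was not tested. The promoter of Wnt7a is shown as that of the ligand with the largest rise in NPC, over the 250 bases before its start (RefSeq, GRCm38.p6, chr6:91411354-91411603, minus strand), with CG dinucleotides in capitals.
Wnt7a: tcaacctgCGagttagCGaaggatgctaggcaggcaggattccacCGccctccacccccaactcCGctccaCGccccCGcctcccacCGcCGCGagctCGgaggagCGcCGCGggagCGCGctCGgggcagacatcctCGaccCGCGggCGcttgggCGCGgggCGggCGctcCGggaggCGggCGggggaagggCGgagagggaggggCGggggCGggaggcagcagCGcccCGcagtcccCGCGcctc
It held 34 CG dinucleotides, and the ratio of observed to expected CG, from its numbers of C and G, was 0.90.

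Wnt8a and Wnt16 were the ligands lower in NPC than in ESC among the 11 that did not pass the filter through 1 group alone, of which 5 were higher; over all genes 30.9% were lower and 30.4% higher. Wnt8a had 1 count in NPC over both libraries, against 275 in Phc1-KO and 190 in ESC. In CPM it stood at 0 and 0.0649 in NPC, 7.59 and 6.29 in Phc1-KO, and 5.61 and 6.02 in ESC. Its level was 178 times lower in NPC than in ESC (95% counting interval 31.6 to 7071, edgeR adjusted p = 8.48e-05). Phc1-KO did not pass against ESC (log2 change 0.25, 95% interval -0.44 to 0.94). Wnt8a passed the filter through Phc1-KO and ESC but not NPC. Wnt16 was at 0.658 and 0.714 CPM in NPC, 1.31 and 3.0 CPM in Phc1-KO, and 6.78 and 4.93 CPM in ESC. It fell in NPC, with a log2 change of -3.08 (SE 0.48, adjusted p = 0.00139), and in Phc1-KO it had -1.43 (SE 0.41, adjusted p = 0.0701; 0.0440 with only Phc1-KO and ESC fitted). The NPC and Phc1-KO libraries all lay below both ESC libraries for Wnt16.

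Wnt3a, Wnt10a and Wnt10b, all ligands of the beta-catenin branch, were scarce in every library. Wnt3a had no counts in NPC, 0.209 and 0.484 CPM in Phc1-KO, and 0.740 and 0.791 CPM in ESC. With 3 counts over the group as the floor, it was at least 7.81-fold lower in NPC than in ESC. Wnt10b had no counts in NPC, 0.157 and 0.194 CPM in Phc1-KO, and 0.617 and 0.669 CPM in ESC, which made it at least 6.56-fold lower in NPC than in ESC. Wnt10a was at 0.0658 and 0.26 CPM in NPC, 0.419 and 0.387 CPM in Phc1-KO, and 1.05 and 1.46 CPM in ESC. All 3 passed the filter through ESC alone, so these differences are a description. In all 3 genes the Phc1-KO libraries lay between NPC and ESC without overlap. The sum of primitive streak markers, 4 genes in all, also lay between. It was 2.30 and 1.17 CPM in NPC, 15.6 and 13.2 CPM in Phc1-KO, and 89.1 and 87.0 CPM in ESC. The part of these markers in the levels of the 3 ligands was not tested. In ESC most of that sum was T, at 58.1 and 56.7 CPM. T stood at 1.25 and 0.325 CPM in NPC and 7.17 and 6.05 CPM in Phc1-KO. Eomes lay slightly above T in Phc1-KO, at 7.44 and 6.48 CPM.

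Wnt2b was at 4.73 and 18.3 CPM in NPC, 6.81 and 3.34 CPM in Phc1-KO, and 3.52 and 3.28 CPM in ESC. It rose in NPC by a log2 change of 1.76 (SE 0.64, adjusted p = 0.0457), a call that rested on NPC 2: without that library the log2 change was 0.48 (adjusted p = 0.382). The call was also lost without ESC 1, ESC 2, Phc1-KO 1 or Phc1-KO 2, and by limma-voom (adjusted p = 0.114). Wnt9a was at 3.42 and 7.92 CPM in NPC, 2.93 and 2.42 CPM in Phc1-KO, and 4.26 and 4.87 CPM in ESC, and passed in neither comparison with ESC. The NPC libraries of Wnt9a lay on either side of ESC. Wnt2, Wnt4, Wnt6 and Wnt11 reached at most 5.71 CPM in any library and did not pass against ESC, and Wnt8b and Wnt9b stayed at 0.524 CPM or below. Wnt2 and Wnt6 were highest in NPC 2, at 3.57 and 5.71 CPM, against 0.132 and 0.329 CPM in NPC 1. Wnt1, which patterns the midbrain and hindbrain border, had no counts in any library, which allows a level of up to 0.0291 CPM over all 6.

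Several ligand genes lie next to each other in the genome. In mm9, Wnt6 and Wnt10a are 6196 bases apart on chromosome 1, Wnt10b and Wnt1 11706 bases apart on chromosome 15, and Wnt3a and Wnt9a 16175 bases apart on chromosome 11. Within these pairs the levels differed. Wnt9a reached 3.42 and 7.92 CPM in NPC where Wnt3a had no counts, and Wnt6 in NPC 2 reached 5.71 CPM where Wnt10a had 0.26 CPM.

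Frizzled genes were all expressed: the 10 genes reached 1 CPM or more in both libraries of each group. Fzd1 and Fzd3 took 26.0% and 30.0%, and 31.0% and 22.9%, of the Frizzled sum per kb in NPC 1 and 2. Fzd7 took 44.5% and 48.3% in Phc1-KO and 38.9% and 38.6% in ESC, followed by Fzd5 with 25.2% and 21.3% in Phc1-KO and 26.9% and 28.0% in ESC. Of the 10 tested, 5 were higher in NPC than in ESC and 2 lower (70.0%, beside 61.3% of all genes). In Phc1-KO 0 were higher than in ESC and 1 lower (1 of 10, beside 10.7% of all genes). Both were near the shares of all genes.

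**Figure D3:**
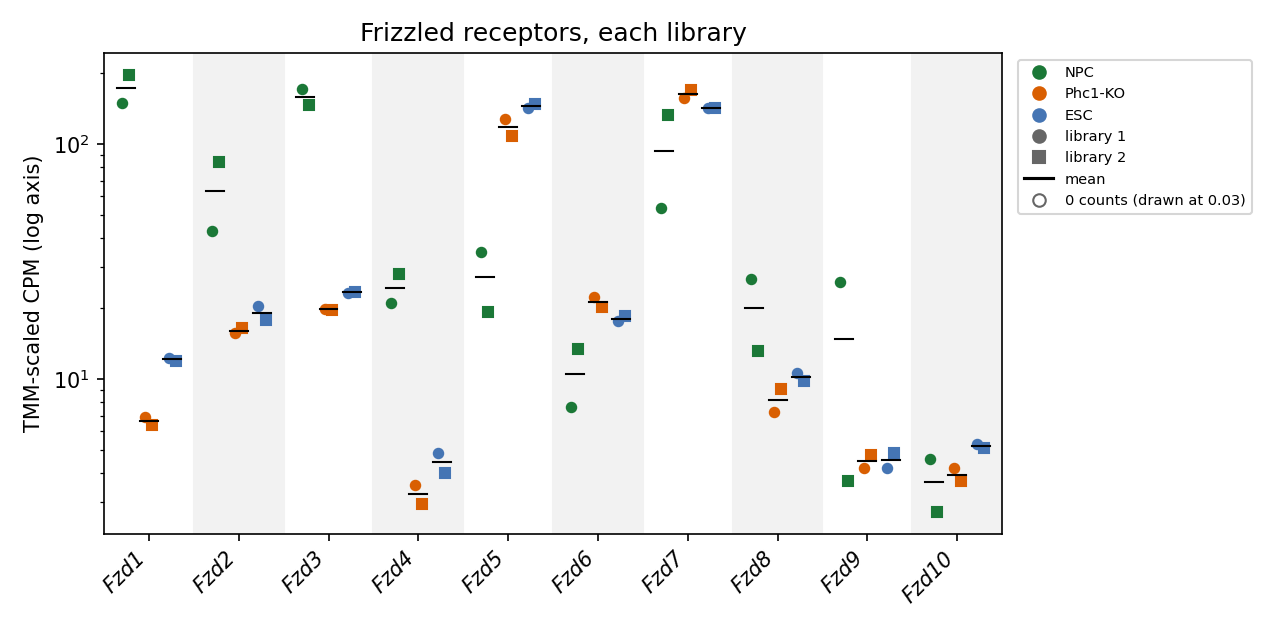
TMM-scaled CPM (log axis) of the 10 Frizzled genes in each library for NPC, Phc1-KO and ESC, with bars at the mean of 2 libraries. Fzd1, Fzd2, Fzd3 and Fzd4 are highest in both NPC libraries, and Fzd5 is lowest there.

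Fzd1 (ENSMUSG00000044674; mm9 chromosome 5, 4753842 to 4758216, minus strand) was at 149 and 197 CPM in NPC, 6.91 and 6.39 CPM in Phc1-KO, and 12.3 and 12 CPM in ESC. NPC were highest and Phc1-KO lowest, with no overlap. It rose 14.2-fold in NPC (log2 change 3.83, SE 0.19, adjusted p = 1.53e-05), and fell in Phc1-KO, with a log2 change of -0.87 (SE 0.18, adjusted p = 0.0301). The Phc1-KO call was lost by limma-voom (adjusted p = 0.0792) and without any 1 of the Phc1-KO or ESC libraries (0.0772 to 0.239). The 250 bases before its start, shown as the promoter of the receptor with the largest rise in NPC (RefSeq, GRCm38.p6, chr5:4758217-4758466, minus strand), held 12 CG dinucleotides, in capitals, a ratio of 0.75.
Fzd1: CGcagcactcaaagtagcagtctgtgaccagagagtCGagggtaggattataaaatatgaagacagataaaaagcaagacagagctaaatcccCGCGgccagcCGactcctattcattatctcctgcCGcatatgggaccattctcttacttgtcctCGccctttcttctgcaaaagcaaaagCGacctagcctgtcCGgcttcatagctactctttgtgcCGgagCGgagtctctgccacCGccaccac

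Fzd3, a receptor needed for axon tracts and cell polarity in the mouse, was at 172 and 146 CPM in NPC, 19.8 and 19.7 CPM in Phc1-KO, and 23.3 and 23.5 CPM in ESC. It rose 6.78-fold in NPC (log2 change 2.76, SE 0.15, adjusted p = 1.94e-05). Fzd4, which also serves as the receptor of the non-Wnt ligand norrin, was at 21.0 and 28.1 CPM in NPC, 3.56 and 2.95 CPM in Phc1-KO, and 4.87 and 4.01 CPM in ESC, a log2 change of 2.46 in NPC (SE 0.25, adjusted p = 0.000226). Fzd2 was at 42.7 and 83.6 CPM in NPC, 15.7 and 16.5 CPM in Phc1-KO, and 20.4 and 17.9 CPM in ESC, and rose by 1.72 on the log2 scale (SE 0.31, adjusted p = 0.00247). Both NPC libraries of all 3 genes stood above the others, and both Phc1-KO libraries lay below ESC without passing the test.

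Fzd5 was at 34.9 and 19.4 CPM in NPC, 128 and 108 CPM in Phc1-KO, and 142 and 148 CPM in ESC. It fell in NPC, with a log2 change of -2.42 (SE 0.27, adjusted p = 0.000318), and had -0.30 in Phc1-KO (95% interval -0.89 to 0.30). Fzd7, the most abundant Frizzled in ESC and a receptor described in stem cell self-renewal, was at 53.7 and 133 CPM in NPC, 157 and 170 CPM in Phc1-KO, and 143 and 142 CPM in ESC. Its NPC libraries lay apart, and it passed in neither comparison with ESC (log2 change -0.61 in NPC, 95% interval -1.46 to 0.24, and 0.20 in Phc1-KO, 95% interval -0.64 to 1.05). Without NPC 2 it was lower in NPC, at -1.40 (adjusted p = 0.000372).

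Fzd6 was at 7.63 and 13.4 CPM in NPC, 22.3 and 20.3 CPM in Phc1-KO, and 17.6 and 18.6 CPM in ESC, with a log2 change of -0.78 in NPC (SE 0.27, adjusted p = 0.0396). Fzd8 was at 26.8 and 13.2 CPM in NPC, 7.23 and 9.09 CPM in Phc1-KO, and 10.6 and 9.85 CPM in ESC, with a log2 change of 0.97 in NPC (SE 0.34, adjusted p = 0.0408). Both calls were marginal: without NPC 1 they had adjusted p of 0.0738 and 0.178, and they were also lost without ESC 1, ESC 2, Phc1-KO 1 or Phc1-KO 2. Fzd9 was at 26.0 and 3.70 CPM in NPC, 4.19 and 4.74 CPM in Phc1-KO, and 4.19 and 4.87 CPM in ESC. NPC 1 alone stood apart, and Fzd9 did not pass (log2 change 1.71, adjusted p = 0.0866), though it did by DESeq2 (adjusted p = 0.0288); without NPC 1 the value was -0.29 and without NPC 2 it was 2.52.

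Fzd10 was at 4.6 and 2.73 CPM in NPC, 4.19 and 3.68 CPM in Phc1-KO, and 5.30 and 5.11 CPM in ESC, and did not pass against ESC. Its counts are uncertain, since the pseudogene entry of the same name overlaps 2430 of its 3250 exon bases on the same strand. That entry had 0 counts in every library, and 820 exon bases of Fzd10 lie outside it. How reads in the shared bases were assigned is not known, so its level is uncertain.

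Among the antagonists, Dkk2 set the Phc1-KO libraries apart from both other groups. In NPC, Dkk3 was higher and Dkk1 and Sfrp4 lower than in ESC, among 6 antagonists tested (50.0%, beside 61.3% of all genes). In Phc1-KO, Dkk2 was higher than in ESC and 0 were lower (16.7%, beside 10.7% of all genes). Both shares rest on 6 genes. Per kb, Dkk3 and Sfrp1 led in NPC (63.4% and 33.0%, and 22.8% and 57.3%, of the antagonist sum), and Sfrp1 led in ESC (43.4% and 44.8%). In Phc1-KO the sum was split between Dkk2 (24.5% and 29.6%), Sfrp1 (27.1% and 21.1%) and Dkk3 (23.1% in both).

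**Figure D4:**
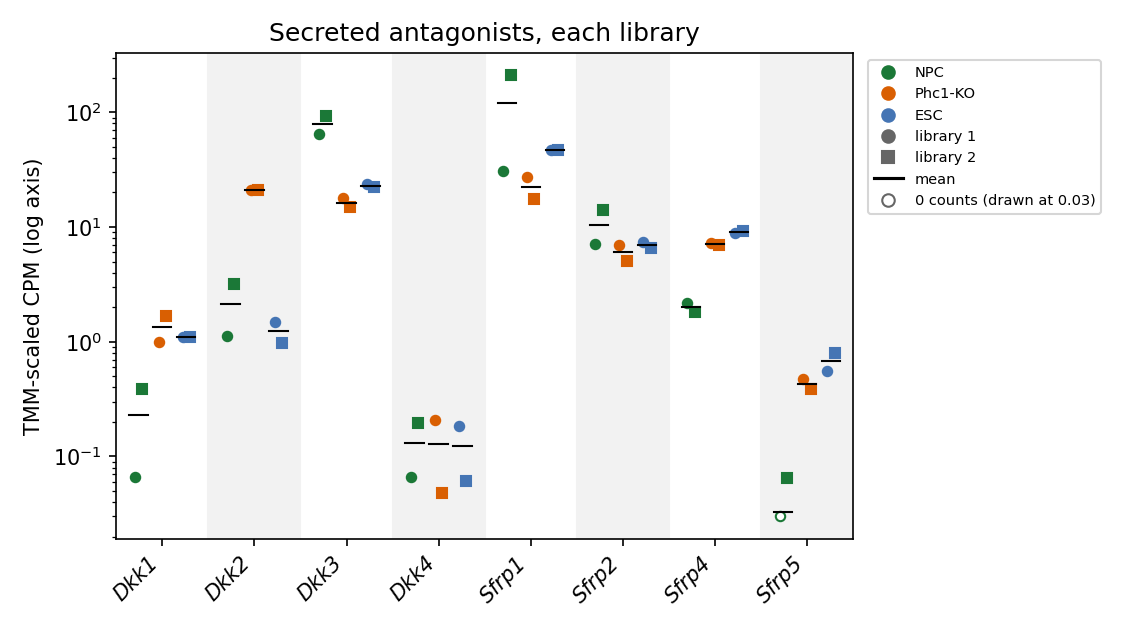
TMM-scaled CPM (log axis) of the 8 Dkk and Sfrp genes in each library for NPC, Phc1-KO and ESC, with bars at the mean of 2 libraries and open symbols for 0 counts. Dkk2 is at 20.9 CPM in both Phc1-KO libraries and at 3.18 CPM or below in the others.

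Dkk2 (ENSMUSG00000028031; mm9 chromosome 3, 131748256 to 131843257, plus strand) was at 1.12 and 3.18 CPM in NPC, 20.9 and 20.9 CPM in Phc1-KO, and 1.48 and 0.973 CPM in ESC. The Phc1-KO libraries held 400 and 431 counts, the ESC libraries 24 and 16. Phc1-KO stood above all other libraries, while NPC and ESC overlapped. The log2 change was 4.08 in Phc1-KO against ESC (SE 0.47, adjusted p = 0.00636) and 3.28 in Phc1-KO against NPC (SE 0.44, adjusted p = 0.000683). In NPC against ESC it was 0.81 (SE 0.50, adjusted p = 0.195). In Phc1-KO 6 of 10 fibroblast markers were higher than in ESC and 0 lower. Their sum was 7395 and 11855 CPM in NPC and 1063 and 854 CPM in Phc1-KO. Postn rose most of them, at 346 and 1059 CPM in NPC, 168 and 198 CPM in Phc1-KO, and 4.63 and 4.93 CPM in ESC. Col1a1, Col1a2, Col3a1 and Thy1 did not pass in Phc1-KO against ESC. The part of the 10 markers in the Phc1-KO level of Dkk2 was not tested. The promoter of Dkk2 is shown as that of the member with the largest change in Phc1-KO, again with CG in capitals (RefSeq, GRCm38.p6, chr3:132085042-132085291, plus strand).
Dkk2: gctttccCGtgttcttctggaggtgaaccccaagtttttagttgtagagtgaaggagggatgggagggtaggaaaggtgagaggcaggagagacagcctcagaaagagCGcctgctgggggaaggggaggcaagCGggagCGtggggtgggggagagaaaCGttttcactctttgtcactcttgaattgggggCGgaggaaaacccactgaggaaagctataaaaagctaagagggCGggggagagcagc
It held 7 CG dinucleotides at a ratio of 0.45, below the 34 and 0.90 of Wnt7a.

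Dkk3, a Dkk relative that does not bind the Lrp co-receptors as Dkk1 does, was at 65.1 and 93.4 CPM in NPC, 17.9 and 14.8 CPM in Phc1-KO, and 23.6 and 22.5 CPM in ESC. It rose in NPC by 1.78 on the log2 scale (SE 0.21, adjusted p = 0.000433), and in Phc1-KO it had -0.50 (SE 0.21, adjusted p = 0.173), with no overlap of the groups in either case. Dkk1 was scarce, at 0.0658 and 0.390 CPM in NPC, 0.995 and 1.69 CPM in Phc1-KO, and 1.11 and 1.09 CPM in ESC. It fell in NPC, with a log2 change of -2.23 (SE 0.65, adjusted p = 0.0211), and without NPC 1 the value was -1.48 (adjusted p = 0.0749); the call was also lost without ESC 1 or ESC 2. Dkk4 had 1 to 4 counts in every library.

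Sfrp1 was at 30.5 and 211 CPM in NPC, 27.4 and 17.6 CPM in Phc1-KO, and 46.8 and 46.8 CPM in ESC. NPC 1 lay below ESC and NPC 2 above it, so no direction was found (log2 change 1.37, SE 0.74, adjusted p = 0.145); without NPC 1 it was 2.17 and without NPC 2 it was -0.61. Of the astrocyte markers, Aqp4 (15.8 CPM in NPC 1 but 458 in NPC 2) and Gfap (3.81 but 112) differed within the pair in the same direction, while Aldh1l1 (77.5 and 78.0 CPM) and S100b (10.7 and 8.44 CPM) did not; their part in this was not tested. Phc1-KO lay below ESC for Sfrp1 without passing (-1.06, SE 0.74, adjusted p = 0.386). With only Phc1-KO and ESC fitted it passed (-1.07, adjusted p = 0.0222), as it did without NPC 1 (0.0198) or without NPC 2 (0.0211). Sfrp4 was at 2.17 and 1.82 CPM in NPC, 7.23 and 6.92 CPM in Phc1-KO, and 8.88 and 9.25 CPM in ESC, and fell in NPC with a log2 change of -2.18 (SE 0.24, adjusted p = 0.000324). Sfrp2 was at 7.10 and 14.0 CPM in NPC, 6.97 and 5.08 CPM in Phc1-KO, and 7.46 and 6.57 CPM in ESC, where the groups overlapped and no call was made. Sfrp5 had 1 count in NPC over both libraries and 22 in ESC, which was 20.6 times lower in NPC (95% counting interval 3.33 to 851), and it was left untested by the filter. Antisense non-coding genes or a pseudogene share 38 exon bases with Wnt7b, 364 with Wnt11 and 347 with Sfrp2.

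**Figure D5:**
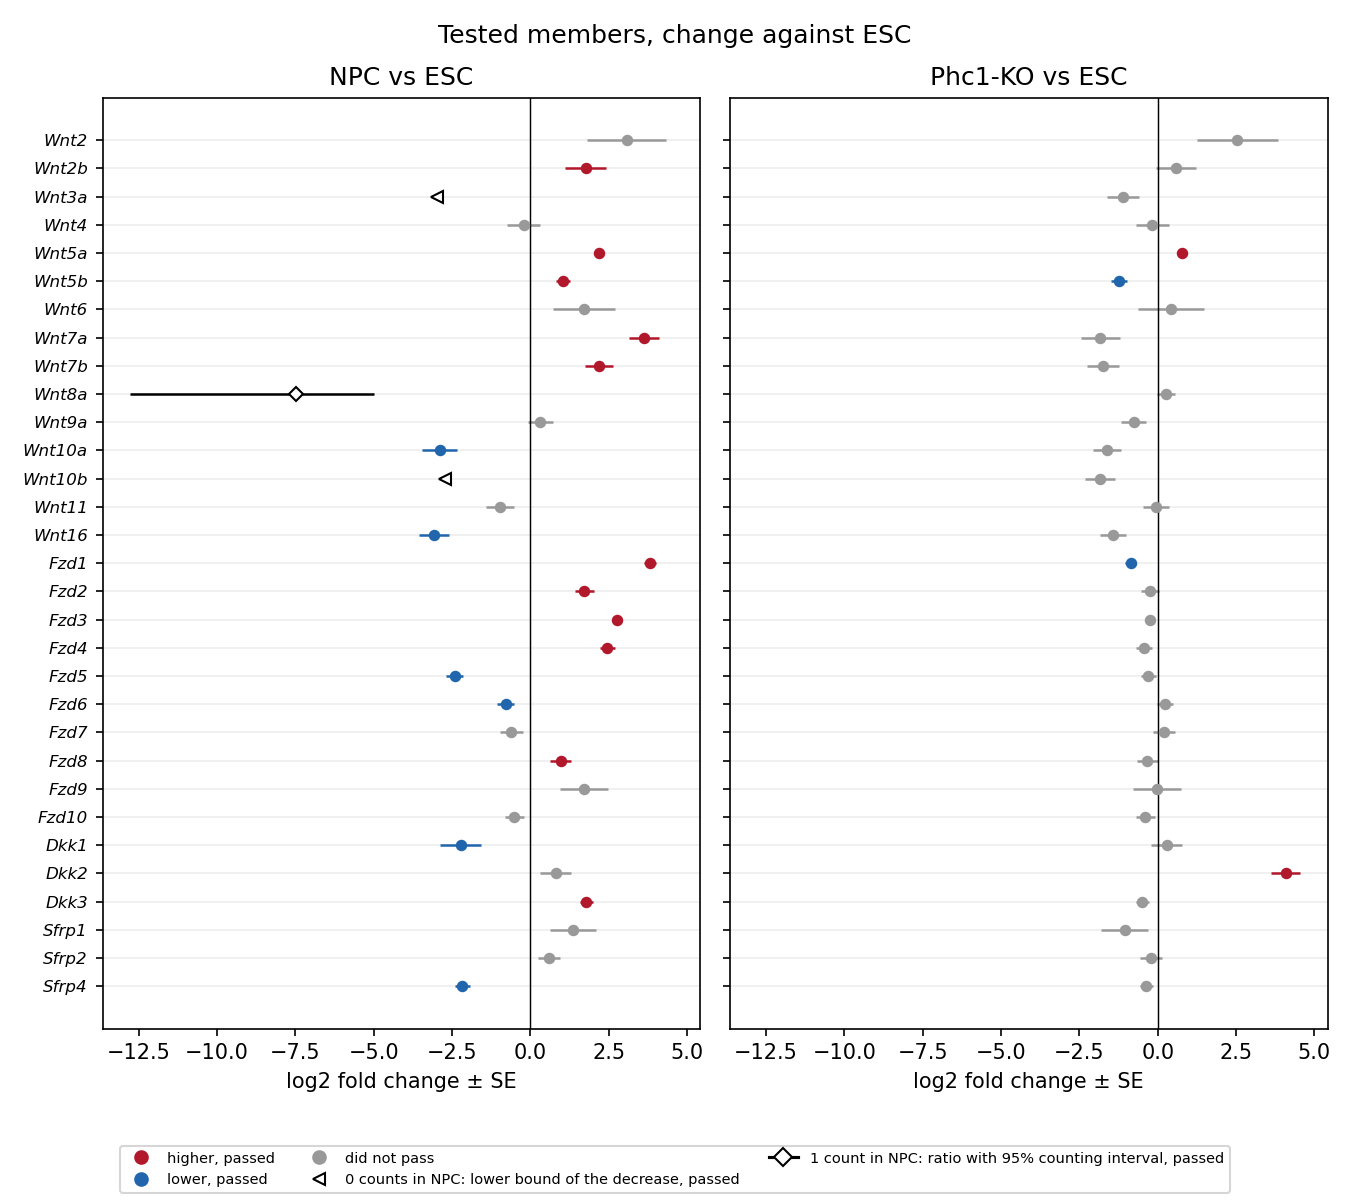
Log2 fold change with its SE for the 31 tested members, in NPC against ESC on the left and Phc1-KO against ESC on the right; red and blue points passed the test, grey points did not, open triangles are bounds for genes with 0 counts in NPC, and the open diamond is Wnt8a with its 95% counting interval. Wnt3a, Wnt10a and Wnt10b passed the filter through ESC alone. Members lie on both sides of 0 in NPC, and Dkk2 at 4.08 lies farthest from 0 in Phc1-KO.

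Set against NPC, the Phc1-KO libraries had 9 members higher and 11 lower, or 64.5%, beside 64.9% of all genes (32.3% higher, 32.7% lower). Without the 4 members that passed the filter through 1 group alone, 7 were higher and 11 lower of 27. Both Phc1-KO libraries lay above both NPC libraries in 12 members and below in 13, beside 40.9% and 40.5% of all genes (81.4% together). Since this comparison shares its libraries with those above, it adds only the direct tests. Fzd1 was lowest relative to NPC among the receptors, at a log2 change of -4.70 (SE 0.20, adjusted p = 8.58e-06), followed by Fzd3 at -3.0 (SE 0.15) and Fzd4 at -2.91 (SE 0.26). Fzd5 was higher, at 2.12 (SE 0.27, adjusted p = 0.000490), and Fzd6 at 1.02 (SE 0.27, adjusted p = 0.0133). Wnt8a was 212 times higher in Phc1-KO than in NPC (95% counting interval 37.7 to 8390). By these tests Wnt5a had the order NPC, Phc1-KO, ESC from high to low with each step past the threshold, and Wnt5b and Fzd1 had the order NPC, ESC, Phc1-KO. For Dkk2 the step between NPC and ESC did not pass.

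Other genes of the pathway were described from lists of 62 genes, of which 57 were tested. They were listed with earlier results of these data known. In NPC 26 were higher and 13 lower than in ESC, or 68.4%, beside 61.3% of all genes, and the median log2 change was 0.40, against -0.01 over all genes. Among genes for Wnt release, Wls, the carrier of Wnt proteins to the surface, rose by 1.86 (SE 0.19), while Porcn, the enzyme that attaches the lipid, had -1.94 (SE 0.22) and Notum, which removes it, -3.20 (SE 0.34). Trabd2b, a membrane protease that cleaves Wnts, rose by 4.62 (SE 0.49). Of the 6 co-receptors tested, 2 rose in NPC and 0 fell (33.3%, beside 61.3% of all genes). Those that rose were Ror1 at 3.98 (SE 0.61) and Ror2 at 1.46 (SE 0.39), both receptors for Wnt5a. Their NPC libraries lay apart, at 35.0 and 136 CPM for Ror1 and 23.5 and 57.2 CPM for Ror2. Lrp5 (-0.52, adjusted p = 0.111) and Lrp6 (0.15, adjusted p = 0.440) did not pass. Of 23 other secreted and surface modulators 13 were higher in NPC and 5 lower (78.3%, beside 61.3% of all genes). Igfbp4, a binding protein of insulin-like growth factors that also binds Frizzled and Lrp6, rose by 3.90 (SE 0.21), whereas Kremen2, which binds Dkk proteins, had -4.0 (SE 0.44). Norrin, Ndp, had 1 count in ESC over both libraries, and stood at 10.3 and 4.35 CPM in NPC. Frzb, an antagonist related to the Sfrp family, was at 8.35 and 8.51 CPM in NPC against 1.36 and 0.973 CPM in ESC. Wif1, another secreted Wnt binder, did not pass the filter and had 0.592 and 10.6 CPM in NPC, against 0.493 and 0 CPM in ESC.

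Inside the cell, 6 of 17 cascade and nuclear factors were higher in NPC and 4 lower (58.8%, beside 61.3% of all genes). That share was near the background, and the genes below are given for their values. Lef1 had -2.87 (SE 0.20), while Tcf7l2 rose by 2.61 (SE 0.29) and Pygo1 by 2.86 (SE 0.21). The Dishevelled genes Dvl1 and Dvl2, which relay the signal from Frizzled, had 0.26 (adjusted p = 0.285) and -0.66 (SE 0.17, adjusted p = 0.0117). Dvl3, named after its values were seen, rose by 1.5 (SE 0.35, adjusted p = 0.00864). Planar polarity genes numbered 7, of which 3 rose in NPC and 2 fell (71.4%, beside 61.3% of all genes). Among these were Prickle2 at 2.84 (SE 0.46), Celsr2 at 1.94 (SE 0.43) and Celsr3 at -1.97 (SE 0.25). The NPC libraries lay apart for Prickle2 (55.9 and 134 CPM) and Celsr2 (51.3 and 21.3 CPM). Vangl1 and Vangl2 had 0.21 and 0.44 (adjusted p = 0.403 and 0.0942).

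In Phc1-KO 2 of the 57 pathway genes were higher than in ESC and 5 lower, or 12.3%, beside 10.7% of all genes, with a median of -0.19, against 0.00 over all genes. That share was near the background, and the 7 genes are given for their values. Higher were Lef1, at a log2 change of 1.23 (SE 0.17, adjusted p = 0.00979), and Notum, at 1.36 (SE 0.26, adjusted p = 0.0247). Lower were Rspo2, at -3.27 (SE 0.56, adjusted p = 0.0176), Rnf43, at -2.21 (SE 0.36, adjusted p = 0.0153), Gpc3, at -1.80 (SE 0.38, adjusted p = 0.0316), Igfbp4, at -1.41 (SE 0.20, adjusted p = 0.0104), and Vangl1, at -0.84 (SE 0.21, adjusted p = 0.0482). Rspo2 is a secreted enhancer of Wnt signalling and Rnf43 a ligase that removes Frizzled receptors from the surface. Rspo2 was at 0.367 and 0.822 CPM in Phc1-KO against 6.85 and 4.87 CPM in ESC. Without ESC 1, without ESC 2, without Phc1-KO 2 or with the ESC pair counted as 1 library, 0 of the 57 passed in either direction; without Phc1-KO 1 the counts were 2 higher and 4 lower. By DESeq2 they were 5 and 8, and without the NPC libraries 6 and 13. The share of all genes called in those fits is not given, so these counts have no background beside them. Of the 9 genes listed as beta-catenin targets 5 were lower in Phc1-KO and 0 higher, or 55.6%, beside 10.7% of all genes. The median over the 9 was -1.79. The lower ones were Axin2, Sp5, T, Cdx1 and Cdx2, while Nkd1, Lgr5, Ccnd1 and Tcf7 did not pass. Lef1 and Notum, both higher in Phc1-KO, stood in other lists, so these counts depend on how the lists were drawn up. In NPC 3 of the 9 were higher and 5 lower, or 88.9%, beside 61.3% of all genes. In Phc1-KO all 4 primitive streak markers were lower than in ESC as well (median -3.40); T is in both lists, and the part of such cells in the target genes was not tested.

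Promoters were read for 24 of the 36 named members, with 27 windows of 250 bases before a start. CG dinucleotides were frequent in them: the median window held 22, against 10 in 21262 windows of protein-coding genes and 6 over all 32850 windows. The ratio of observed to expected CG was 0.6 or more in 20 of the 27, or 74.1%, against 44.7% of protein-coding windows. The core recognised by TCF and LEF factors was searched as CTTTGAA and CTTTGAT on both strands, forms that cannot match at the same place. It was found in 3 of the 27 windows, or 11.1%, against 6.73% of protein-coding windows and 7.48% of all windows. The 3 matches are shown with 10 bases on either side and the core in capitals, and a match is only a match of letters.
Dkk1 (chr19:30549597-30549623, minus strand): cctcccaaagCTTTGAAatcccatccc
Wnt5b (chr6:119449441-119449467, minus strand): gtaagtctctCTTTGATctgctccctg
Wnt11 (chr7:98835051-98835077, plus strand): acgtgggcggATCAAAGcgacggtccg
Wnt11 carries the reverse complement of the second form. Wnt5b and Wnt11 also have other windows, which held no core. Of these genes, Wnt5b was lower in Phc1-KO than in ESC, and Dkk1 and Wnt11 did not pass there. In NPC against ESC Wnt5b was higher and Dkk1 lower, and Wnt11 did not pass. No entry was found for Wnt5a, Wnt7b, Wnt8a, Wnt10a, Fzd2, Fzd3, Fzd6, Fzd8, Dkk3, Dkk4, Sfrp1 and Sfrp4.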

How the data were processed

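Ribosomal-RNA-depleted RNA was read from 2 libraries each of NPC, Phc1-KO and ESC. The tables deposited by the authors hold unnormalised read counts for Ensembl genes; STAR, HTSeq and mm9 are named in the submitters' processing notes. Tool versions, the gene annotation and the handling of strand were not found in the sources used here. The 5 closing tallies of each table were left out; reads outside genes came to 0.661 to 1.09 per read in a gene. GENCODE M1, an mm9 annotation, gave symbols for 37205 of 37620 identifiers, positions and union exon lengths.

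All genes were fitted with edgeR 4.0.16 in R 4.3.3 (quasi-likelihood F test, 1 term per group, 6 libraries, 3 residual degrees of freedom), after filterByExpr (minimum count 10, minimum total 15) and TMM scaling, with Benjamini-Hochberg adjustment over the 17489 genes tested and a threshold of 0.05. SE was derived from the fold change and F. The fit was also run on simulated data in which all groups shared the same spread. The pairs here differ in spread, so that run does not bear on the calls. Intervals are at 95%; floors (3 counts per group) and counting intervals (exact binomial) cover counting error only, and reads carry no molecular identifiers.

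Alternatives were DESeq2 1.42.0, limma-voom (limma 3.58.1), other scalings and filters, fits of only the groups compared, a replicate block, the ESC pair as 1 library and each library left out. Same-numbered libraries did not deviate together (correlations -0.0207 to 0.0202). Members were named with all their values where they passed against ESC or averaged 5 CPM or more in a group; of each pathway list, the leading members and those with the largest changes that passed. The members and lists were chosen with earlier results of these data known. Promoters came from RefSeq (GRCm38.p6), older symbols from the RefSeq gene table, and figures from matplotlib 3.10.9. Sox1, a listed marker, was not matched. One gene that fits the name pattern is not reported here.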

Additional observations from a re-analysis of the deposited data

How the results depend on the processing

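Between NPC and ESC 13 of the 20 calls, Wnt10a among them, were made under each of 15 alternatives. Another 2 (Wnt3a, Wnt10b) were made under those in which they could be tested. Wnt3a, Wnt10a and Wnt10b passed the filter through ESC alone, so their calls do not bear on how stable the results are. Under each alternative 0 of 4 calls were made between Phc1-KO and ESC and 13 of 20 between Phc1-KO and NPC. No called member changed sign. Leaving out 1 library gave 8 to 16 members higher and 7 to 12 lower in NPC against ESC, 0 to 3 and 0 to 8 in Phc1-KO against ESC, and 5 to 12 and 9 to 16 in Phc1-KO against NPC. Of Phc1-KO against ESC, the ESC pair as 1 library gave 1 higher and 0 lower, and a fit of only these groups 3 and 8. The replicate block, though numbers do not pair the libraries, gave 10 and 9 in NPC against ESC, 2 and 3 in Phc1-KO against ESC, and 10 and 10 in Phc1-KO against NPC. Shares of all genes called are given for the main fit alone, so counts under the alternatives have no background beside them. Only members that were not called changed sign, and the cause was not tested. With 1 library left out, log2 fold changes in NPC against ESC ran over -0.41 to 0.80 for Wnt9a, -0.29 to 2.52 for Fzd9, -0.13 to 1.37 for Dkk2 and -0.61 to 2.17 for Sfrp1. In Phc1-KO against ESC they ran over -0.02 to 1.0 for Wnt2b, -0.12 to 0.09 for Fzd9 and -0.14 to 0.62 for Dkk1, and DESeq2 and its size factors in edgeR both gave 0.01 for Fzd9. In Phc1-KO against NPC they ran over -1.85 to 0.09 for Wnt2b, -2.54 to 0.28 for Fzd9 and -0.23 to 0.53 for Fzd10. Depth limits the ligands under 1 CPM, where 0 counts allow up to 0.0980 CPM in NPC, 0.0754 CPM in Phc1-KO and 0.0919 CPM in ESC.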
